A study of Mus musculus with 19 samples.

Results

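The Notch pathway was followed in the mouse retina through 10 genes chosen by symbol: the receptors Notch1, Notch2 and Notch3, the ligands Dll1, Dll3, Dll4 and Jag1, and the target genes Hes1, Hes5 and Hey1. They are 10 of the 35734 genes listed in any of 3 comparison tables that the authors deposited. All 10 were analysed at 14 days and at E17.5, and 9 at 48 h, where Jag1 was not analysed. The series asks which genes lie behind the contralateral projections of retinal ganglion cells, that is axons that cross to the other brain side, with Pou3f1, a POU family transcription factor gene, as the gene that was added or deleted.

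The 19 RNA-seq libraries form 6 groups. In the overexpression experiment, wild type CD1 pups received plasmid DNA at 3 µg/µl by electroporation into the eye on postnatal day 1, and GFP-positive cells were sorted later. The groups were Pou3f1 at 48 h (3 libraries) against Gfp at 48 h (3 libraries), and Pou3f1 at 14 days (5 libraries) against Gfp at 14 days (4 libraries). Each of these libraries combined sorted cells to 150000, so a library is a pool. The sample labels give the late age as 14 days after electroporation and the protocol text as postnatal day 14. For the loss of Pou3f1, whole C57B6J retinas at E17.5, an embryonic stage, came from Pou3f1 knockouts (2 libraries) and heterozygotes (2 libraries), so the controls also carry a mutant Pou3f1 allele. The promoter on the plasmids and the design of the Pou3f1 allele have no description in the sources used here.

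Notch receptors are cell surface proteins that are cut when a ligand on a neighbouring cell binds them. The released intracellular part enters the nucleus, joins the DNA-binding protein Rbpj and activates genes such as Hes1, Hes5 and Hey1, which encode repressors of neuronal genes. In the developing retina the pathway is known for holding cells as progenitors while neighbours that make Delta ligands become neurons, and later for its part in Müller glia. Dll1 and Dll4 bind and activate receptors on the next cell, Jag1 belongs to the second ligand family, and Dll3 is a divergent Delta protein that acts mainly within the cell that makes it and does not activate Notch on neighbours.

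The values are the authors' own results per gene, with no value per library, so the depth and spread of single libraries are unknown. The overexpression fold changes appear shrunken toward 0, and whether those at E17.5 are shrunken is unknown. Each fold change is the first named group over the second. Rose and fell are used of genes whose adjusted p from the authors was under 0.05. The labels do not say which libraries came from separate animals, so p-values reflect the spread among these samples, which may be technical. Pou3f1 itself, the check of the labels, was higher by 0.91 ± 0.26 (SE) on the log2 scale in Pou3f1 cells at 48 h and by 5.57 ± 0.27 at 14 days in the authors' deposited tables (DESeq2 adjusted p = 0.0233 and 3.40e-88). In knockout retinas it fell by 0.69, to 0.62 of the heterozygote level, in the authors' deposited table (DESeq2 adjusted p = 1.98e-08). The knockout over heterozygote direction was read from that value. In bulk samples, fewer cells of a type and less RNA per cell cannot be told apart.

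Promoters are shown for Hes5, the target whose response differed most between the ages, for Dll3, the gene that passed in opposite directions when Pou3f1 was added and when it was deleted, and for Dll1, where the window at the start inside the annotated gene holds the octamer bound by POU factors. Each runs from 250 bases before to 50 bases after a RefSeq gene start on GRCm38.p6, read 5′ to 3′ on the gene's own strand. The Hes5 window is chr4:154960673-154960972 on the plus strand, with capitals marking the Rbpj core TGGGAA or its reverse complement. The Dll1 window is chr17:15375774-15376073 on the minus strand, with capitals marking the octamer ATGCAAAT on the other strand. The Dll3 window is chr7:28301736-28302035 on the minus strand and holds none of the motifs searched, so it has no capitals. It lies inside the annotated Dll3 gene.
Hes5: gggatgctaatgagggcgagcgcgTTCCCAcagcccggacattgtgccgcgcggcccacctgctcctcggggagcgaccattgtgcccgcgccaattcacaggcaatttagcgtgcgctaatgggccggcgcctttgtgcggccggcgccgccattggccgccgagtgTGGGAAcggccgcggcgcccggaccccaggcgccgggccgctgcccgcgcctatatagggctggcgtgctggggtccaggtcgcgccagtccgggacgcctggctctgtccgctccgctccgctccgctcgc
Dll1: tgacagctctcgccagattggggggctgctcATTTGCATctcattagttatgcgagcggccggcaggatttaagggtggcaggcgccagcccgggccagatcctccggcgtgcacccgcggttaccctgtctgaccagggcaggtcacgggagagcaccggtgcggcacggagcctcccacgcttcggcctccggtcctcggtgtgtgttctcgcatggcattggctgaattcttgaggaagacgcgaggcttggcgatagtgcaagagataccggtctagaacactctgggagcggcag
Dll3: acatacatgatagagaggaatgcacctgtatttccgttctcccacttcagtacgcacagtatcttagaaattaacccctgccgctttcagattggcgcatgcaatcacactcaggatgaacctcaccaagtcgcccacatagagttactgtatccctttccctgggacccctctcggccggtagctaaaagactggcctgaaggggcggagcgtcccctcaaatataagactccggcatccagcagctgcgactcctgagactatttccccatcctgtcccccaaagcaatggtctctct

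Promoters of 8 of the 10 genes were in the RefSeq table, 9 promoters in all because Dll1 has a pair. The Rbpj core TGGGAA, searched on both strands, was in 1 of these 9, that of Hes5, at positions -226 and -82 relative to the start. Of all 32851 promoters of the same length, 25.6% hold it. The octamer ATGCAAAT was in 1 of the 9, and in 1.74% of all promoters. The N box CACNAG, a site bound by Hes proteins, was in 5 of the 9, those of Notch1, Notch2, Notch3, Dll4 and the other Dll1 start, and in 42.5% of all promoters. These are matches of letters in a short window and no measure of binding. The Notch1 and Dll3 windows lie wholly inside the annotated genes, and bases before their annotated starts were not searched.

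The genes lie at separate places in the genome, given here on GRCm38 with gene limits from GENCODE. Notch1 is at chr2:26457903-26516663, Notch2 at chr3:98013527-98150361 and Notch3 at chr17:32120820-32166852. Dll1 spans chr17:15367354-15376872, Dll3 chr7:28293553-28302238, Dll4 chr2:119325784-119335962 and Jag1 chr2:137081456-137116644. Hes1 is at chr16:30064384-30067796, Hes5 at chr4:154960923-154962371 and Hey1 at chr3:8663359-8667256. Exons of Notch1, Notch3, Dll1, Dll4 and Hes5 share between 214 and 1068 bases with an annotated gene on the opposite strand, and whether counting used strand is not given in the sources used here. For Hes5 the shared stretch is 433 of its 1363 exon bases. If counting ignored strand, reads from that stretch could not be told apart from those of the antisense gene Gm20421. Notch2 shares 541 exon bases with Gm42820 on its own strand. Dll3, Jag1, Hes1 and Hey1 overlap no other annotated gene.

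Abundance differed widely among the 10 genes. Per kilobase of exon, mean normalized counts over both groups at 48 h were 1279 for Hes5, 899 for Notch1 and 810 for Hes1, from the authors' deposited table. Dll3 with 701 and Dll1 with 682 followed, ahead of Dll4 with 264 in the authors' deposited table. Hey1 (132), Notch2 (80.0) and Notch3 (62.3) were the lowest per kilobase in the authors' deposited table at 48 h. At 14 days the order began with Jag1 (740 per kilobase), Hes1 (214), Notch1 (178), Dll1 (147) and Hes5 (142) in the authors' deposited table. It ended with Hey1 (109), Notch2 (109), Notch3 (60.7), Dll4 (23.8) and Dll3 (16.5) in the authors' deposited table. Dll3 thus stood between Hes1 and Dll1 at 48 h and last of 10 at 14 days. The tables give no spread of these levels, so whether neighbours in either order differ is unknown, and the tables were normalized separately, so levels are not compared between ages.

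**Figure D1:**
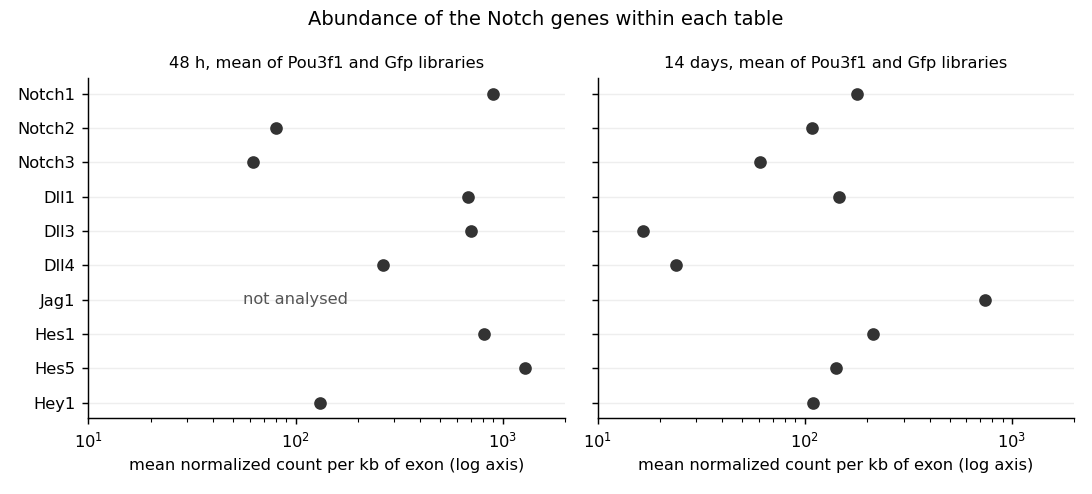
Mean normalized count per kilobase of exon on a log axis for the 10 Notch genes, at 48 h and at 14 days after electroporation, each point the authors' mean over the Pou3f1 and Gfp libraries together. Dll3 is at 701 at 48 h and at 16.5 at 14 days, the lowest of the late points, and Jag1 at 740 is the highest of the late points.

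The 48 h comparison asks how the pathway stands soon after Pou3f1 is added. The receptor gene Notch1 and the target gene Hey1 fell in Pou3f1 cells, by 0.53 and 0.62 on the log2 scale. No Notch gene among the 9 analysed rose. Of the 9, 2 fell and 0 rose, against a background of 1.56% of all 14714 genes lower and 1.48% higher. At an unadjusted p under 0.05, 6 of the 9 were lower and 1 was higher, where 8.46% of all genes were lower and 6.29% higher. Their median log2 fold change was -0.52, against -0.01 for all genes tested.

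Notch1 had a log2 fold change of -0.53 ± 0.15 (SE; 95% interval -0.82 to -0.24) at 48 h in the authors' deposited table (DESeq2 adjusted p = 0.0191). The other receptors pointed the same way without passing. The authors' deposited table gives -0.48 ± 0.19 for Notch2 (interval -0.85 to -0.11, adjusted p = 0.164) and -0.62 ± 0.23 for Notch3 (interval -1.07 to -0.18, adjusted p = 0.117). Notch3 had a larger fold change than Notch1 but also a larger SE, with 504.2 mean counts against 12794 for Notch1, from the authors' deposited table.

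None of the 3 ligands analysed at 48 h passed. Dll4, the ligand of early neurogenic cells and of vessels, had -0.52 ± 0.20 (interval -0.91 to -0.12) in the authors' deposited table (DESeq2 adjusted p = 0.154). Dll1, which activates Notch on neighbouring progenitors, had -0.30 ± 0.17 (interval -0.64 to 0.04) in the authors' deposited table (DESeq2 adjusted p = 0.437). Dll3 had 0.31 ± 0.20 (interval -0.08 to 0.70) in the authors' deposited table (DESeq2 adjusted p = 0.488). The Dll3 value was positive while those of Dll1 and Dll4 were negative.

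The targets did not point the same way at 48 h, and only Hey1 passed. Hey1 fell by 0.62 ± 0.19 (interval -0.98 to -0.25) in the authors' deposited table (DESeq2 adjusted p = 0.0339). Its call ended when p-values were adjusted over every gene with a p (adjusted p = 0.0514). Hes5 had -0.58 ± 0.19 (interval -0.96 to -0.20) and missed the threshold in the authors' deposited table (DESeq2 adjusted p = 0.0740). Hes1, whose protein represses neuronal genes and its own gene, had 0.43 ± 0.15 (interval 0.14 to 0.71) in the authors' deposited table, also short of the threshold (adjusted p = 0.0807). Among the targets the intervals of Hes1 lay above 0 and those of Hes5 and Hey1 below it.

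**Figure D2:**
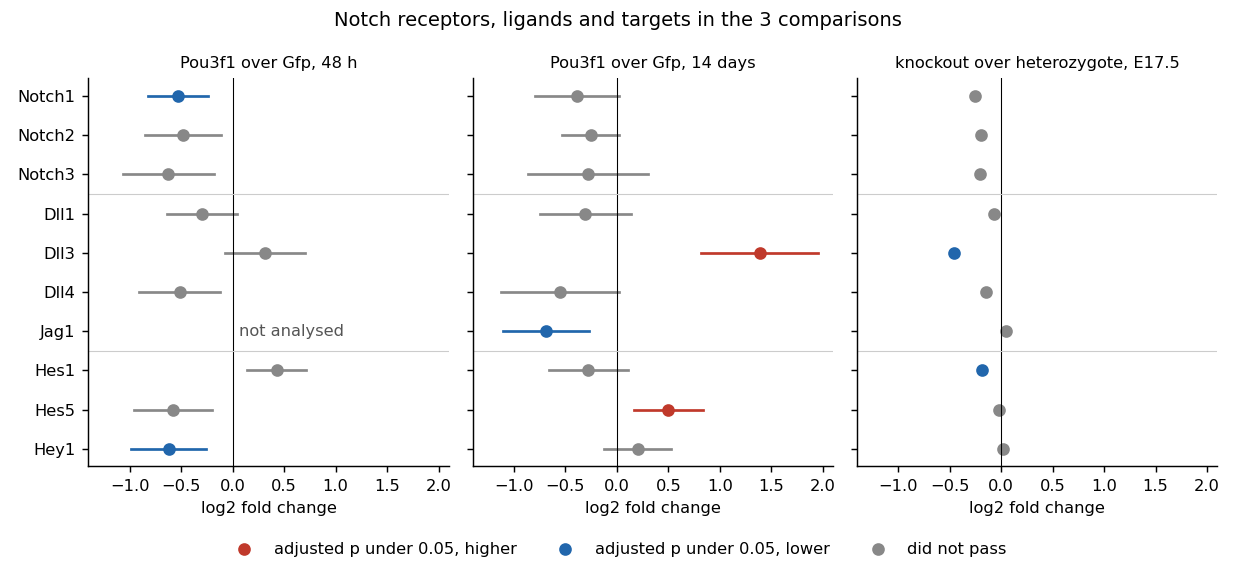
Log2 fold changes of the 10 Notch genes in Pou3f1 over Gfp cells at 48 h and 14 days and in knockout over heterozygous retinas at E17.5, with 95% intervals for the overexpression comparisons and red (higher) or blue (lower) points where the adjusted p was under 0.05. Notch1 and Hey1 passed at 48 h, Dll3, Jag1 and Hes5 at 14 days, and Dll3 and Hes1 at E17.5.

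Of the 54 other pathway genes listed by role, 53 were tested at 48 h, and 3 fell and 1 rose. Over all genes tested, 1.56% fell and 1.48% rose. The 3 that fell were all in the list of other Hes and Hey family genes and targets, where 3 of 6 tested passed. Heyl and Hey2, which encode Hey-family repressors, fell, with -1.02 ± 0.18 for Heyl and -0.998 ± 0.21 for Hey2 in the authors' deposited table (DESeq2 adjusted p = 1.32e-05 and 0.000438). Nrarp, a target whose product dampens Notch signalling, fell by 0.63 ± 0.19 in the authors' deposited table (DESeq2 adjusted p = 0.0337). Dner, which encodes a Delta-like surface protein of neurons, rose by 0.62 ± 0.19 in the authors' deposited table (DESeq2 adjusted p = 0.0393). In the lists for Notch glycosylation, ligand ubiquitination, receptor cleavage, the nuclear complex, corepressors and receptor turnover, 0 genes passed at 48 h. The median of the 53 was -0.06.

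Markers of other cells also leaned lower at 48 h. Neurogenic progenitor markers had 9 of 9 negative values (median -0.45), with 6 of 9 lower at an unadjusted p under 0.05. Müller glia markers had 9 of 10 negative (median -0.34), with 5 lower at an unadjusted p under 0.05. Over all genes tested, 50.9% were negative and 8.46% were lower at that threshold. By adjusted p, the neurogenic list had 2 of 9 lower, Atoh7 (-0.89 ± 0.25) and Neurod1 (-0.59 ± 0.18) in the authors' deposited table (DESeq2 adjusted p = 0.0160 and 0.0458), and the endothelial list had 1 of 9 lower, Kdr (-0.63 ± 0.15, adjusted p = 0.00298). Of the 9 endothelial markers tested, 7 had negative and 2 positive values (median -0.35). Kdr, which retinal progenitors also express, had a mean normalized count of 11683 in the authors' deposited table. The other endothelial markers had between 1.31 (Sox17) and 172.2 (Egfl7) in the authors' deposited table. In the lists of retinal progenitors, Müller glia, pericytes, astrocytes, ganglion cells, rods and microglia, 0 markers passed, with list medians between -0.46 and -0.13. The medians of all 9 marker lists were thus negative, as was the -0.52 of the Notch genes. The part of these cells in the Notch values was not tested.

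At 14 days Dll3 and Hes5 rose in Pou3f1 cells and Jag1 fell. Of the 10 genes, 2 rose and 1 fell, against a background of 11.5% of all 17789 genes higher and 9.21% lower. Read against that background, the share that moved is not a result about these genes as a group. Their median log2 fold change was -0.28, against -0.01 for all genes tested.

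Dll3 rose by 1.39 ± 0.29 on the log2 scale (interval 0.82 to 1.96), or 2.62-fold, in the authors' deposited table (DESeq2 adjusted p = 5.62e-05). Only 1.10% of the genes tested at 14 days had a larger absolute fold change than Dll3. The mean count behind it was low, 47.0 over both groups in the authors' deposited table, and its SE was near the largest of that table (0.297). Jag1 fell by 0.69 ± 0.21 (interval -1.11 to -0.27), to 0.62 of the Gfp level, with 4312 mean counts, in the authors' deposited table (DESeq2 adjusted p = 0.0106). Dll3 and Jag1, both ligand genes, therefore moved in opposite directions.

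The activating Delta ligands did not pass at 14 days. The authors' deposited table has -0.30 ± 0.22 for Dll1 (interval -0.75 to 0.14, adjusted p = 0.356) and -0.56 ± 0.29 for Dll4 (interval -1.13 to 0.02, adjusted p = 0.168). Nor did the receptors pass, with -0.39 ± 0.21 for Notch1, -0.26 ± 0.14 for Notch2 and -0.28 ± 0.30 for Notch3 in the authors' deposited table (DESeq2 adjusted p = 0.184, 0.188 and 0.548). The receptor intervals ran from -0.80 to 0.02 for Notch1, from -0.53 to 0.02 for Notch2 and from -0.86 to 0.30 for Notch3.

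Hes5, a target highly expressed in progenitors, rose by 0.50 ± 0.17 (interval 0.16 to 0.84), or 1.41-fold, with 193.0 mean counts, in the authors' deposited table (DESeq2 adjusted p = 0.0223). Hes1 had -0.28 ± 0.20 (interval -0.66 to 0.11) and Hey1 0.20 ± 0.17 (interval -0.13 to 0.53) in the authors' deposited table (DESeq2 adjusted p = 0.336 and 0.423). Among the targets only Hes5 passed, and the intervals of Hes1 and Hey1 included 0.

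Other pathway genes were mostly higher at 14 days among those that passed: 14 of 54 rose and 1 fell, with a median of 0.10. Over all genes tested, 11.5% rose and 9.21% fell, with a median of -0.01. In the receptor turnover and inhibitor list 4 of 8 rose: Numbl (0.58 ± 0.12), a Numb-family adaptor, Dtx1 (0.58 ± 0.14) and Dtx4 (0.53 ± 0.17), Deltex ubiquitin ligases, and Fbxw7 (0.60 ± 0.16), which marks the Notch intracellular part for degradation, in the authors' deposited table (DESeq2 adjusted p between 4.07e-05 and 0.0126). Of 9 corepressors, 4 rose in the authors' deposited table, among them Tle3 (0.71 ± 0.16), Tle1 (0.43 ± 0.13) and Ctbp1 (0.39 ± 0.10), with adjusted p between 0.000393 and 0.0101 for these. Rbpj itself, the DNA-binding partner of Notch, which can also bind corepressors, rose by 0.33 ± 0.11 in the authors' deposited table (DESeq2 adjusted p = 0.0225).

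Nearer the membrane, Dner (0.75 ± 0.14) and Dlk2 (0.64 ± 0.18), non-canonical ligand genes, rose in the authors' deposited table (DESeq2 adjusted p = 2.26e-06 and 0.00477). So did Neurl1b (0.84 ± 0.25), a ubiquitin ligase of ligands, and Ncstn (0.26 ± 0.07), a subunit of the γ-secretase that cuts Notch, in the authors' deposited table (DESeq2 adjusted p = 0.00722 and 0.00318). Pofut1, which adds O-fucose to Notch, fell by 0.34 ± 0.13 in the authors' deposited table (DESeq2 adjusted p = 0.0424). Of 7 other Hes and Hey family genes and targets, 1 rose. It was Hes6, which encodes a relative of Hes1 that opposes it, by 0.60 ± 0.14 in the authors' deposited table (DESeq2 adjusted p = 0.000371). These lists were chosen with earlier results of these data known, so their counts are descriptions.

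**Figure D3:**
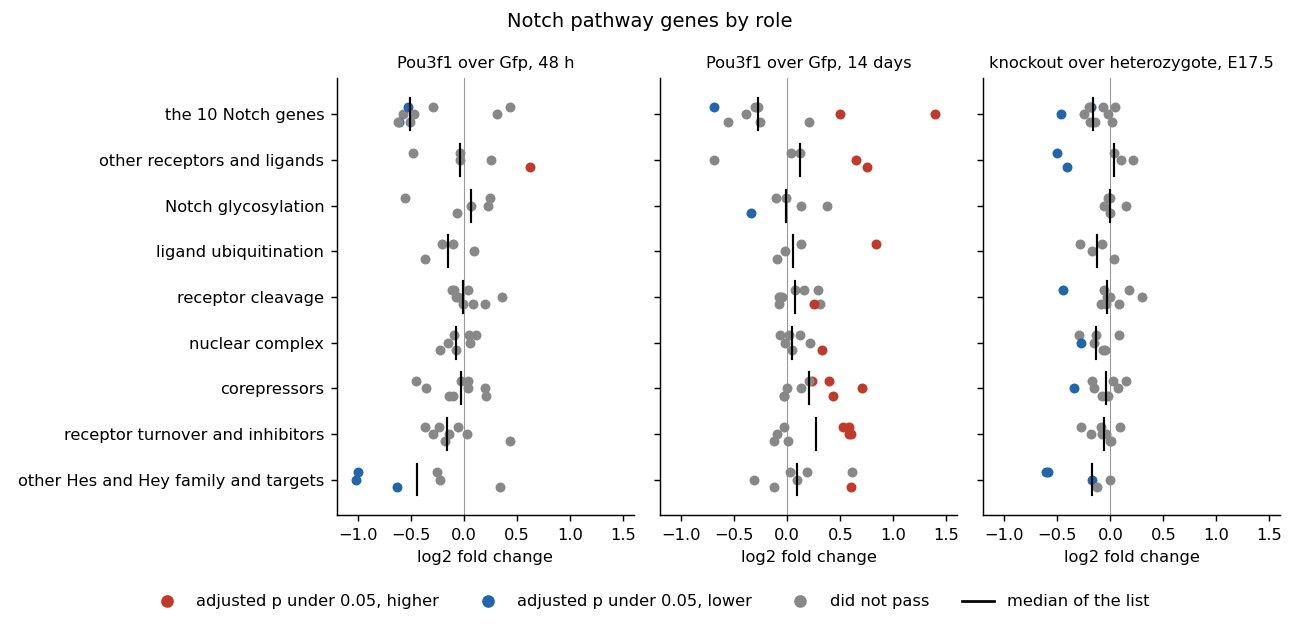
Log2 fold change of each Notch pathway gene by role in the 3 comparisons, with a line at the median of each role and red (higher) or blue (lower) points where the adjusted p was under 0.05. At 14 days 4 of 9 corepressors and 4 of 8 turnover genes and inhibitors rose and none of these fell, while at E17.5 all 8 of the other pathway genes that passed fell. Over all genes tested, 11.5% rose at 14 days and 5.34% fell at E17.5.

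Cell type markers moved widely at 14 days, beside these values. Over all genes tested, 11.5% were higher and 9.21% lower. Müller glia markers had 7 of 12 lower (median -0.57), among them Clu (-1.25 ± 0.21) and Kcnj10 (-0.81 ± 0.13), and endothelial markers had 4 of 12 lower (median -0.64), among them Sox17 (-1.18 ± 0.29) and Flt1 (-0.86 ± 0.21), in the authors' deposited table (DESeq2 adjusted p between 1.37e-07 and 0.000999). Jag1 is known from both vessels and glia. Rod markers had 6 of 8 lower (median -0.43), and 0 of 5 pericyte and 0 of 3 astrocyte markers tested passed. Higher were 8 of 8 microglia markers (median 1.67, C1qa 1.80 ± 0.25), 4 of 10 retinal progenitor markers (median 0.56, Sfrp2 1.08 ± 0.29), 3 of 9 neurogenic markers (median 0.19) and 3 of 11 ganglion cell markers (median -0.05 with 6 of 11 negative, Pou4f2 3.64 ± 0.26) in the authors' deposited table (DESeq2 adjusted p between 7.86e-40 and 0.00323). Levels per library are not given, and the part of these cells in the Notch values was not tested.

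The change in response between the ages was tested directly, as the 14 day minus the 48 h log2 fold change. The comparisons share no library. Hes5, Dll3 and Hey1 differed, each with a more positive fold change at 14 days. Of 9 genes, 3 were higher at 14 days and 0 lower, against a background of 4.48% higher and 1.66% lower among 14580 genes tested. The late and early groups also differ in age, days after electroporation and number of libraries. They differ in the Pou3f1 increase too, which was 0.91 on the log2 scale at 48 h and 5.57 at 14 days. These differences cannot be told apart.

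For Hes5 the difference was 1.08 ± 0.26 on the log2 scale (interval 0.57 to 1.59, adjusted p = 0.00181, two-sided z test with Benjamini-Hochberg adjustment). The difference was 1.07 ± 0.35 for Dll3 (interval 0.39 to 1.76, adjusted p = 0.0405) and 0.82 ± 0.25 for Hey1 (interval 0.33 to 1.31, adjusted p = 0.0248). Hes1 leaned the other way, with -0.70 ± 0.24 (interval -1.18 to -0.23), and did not pass (adjusted p = 0.0586). Targets of one pathway thus had differences of both signs.

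No difference between the ages was detected for the receptors or for Dll1 and Dll4. The differences were 0.14 ± 0.26 for Notch1, 0.22 ± 0.23 for Notch2 and 0.34 ± 0.37 for Notch3 (adjusted p = 0.824, 0.665 and 0.679). Dll1 differed by -0.01 ± 0.28 and Dll4 by -0.04 ± 0.35 (adjusted p = 0.994 and 0.971). Notch1 passed at 48 h and not at 14 days, and no difference between those responses was detected. Of the 53 other pathway genes tested, 5 were higher at 14 days and 0 lower, among them Neurl1b (1.05 ± 0.32), Dtx4 (0.90 ± 0.23), Numbl (0.88 ± 0.20) and Hes6 (0.83 ± 0.22), with adjusted p between 0.000661 and 0.0265. Over all genes tested, 4.48% were higher and 1.66% lower.

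**Figure D4:**
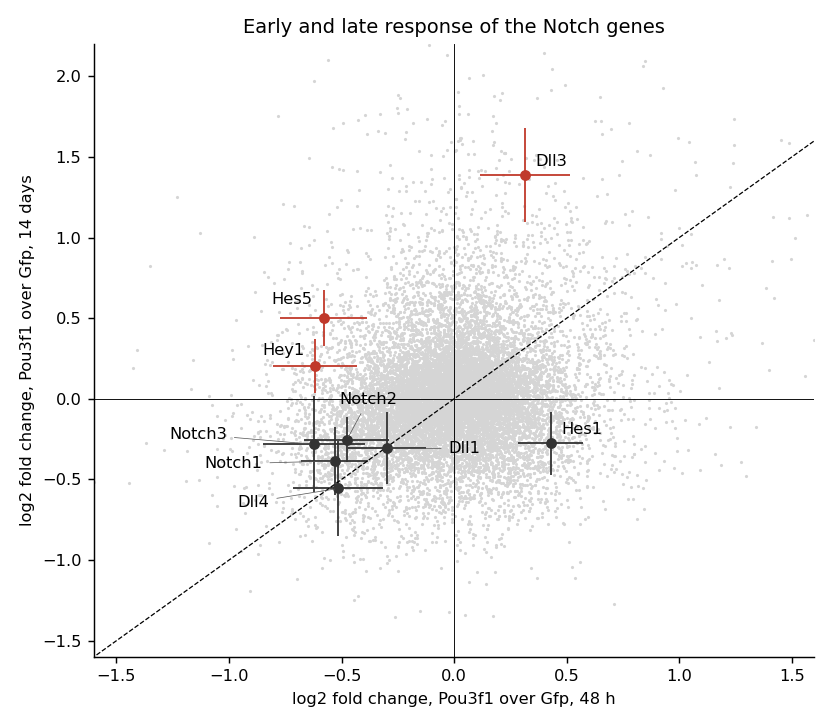
Log2 fold change in Pou3f1 over Gfp cells at 48 h (x axis) and at 14 days (y axis) for 9 Notch genes with bars of 1 SE, over all genes in grey, the dashed line marking equal values and red marking genes whose difference passed; a few grey genes lie beyond the axes. Hes5, Dll3 and Hey1 sit above the line, with differences of 1.08, 1.07 and 0.82, and Hes1 sits below it at -0.70.

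The E17.5 comparison asks what the loss of Pou3f1 does to the pathway in the embryonic retina. Dll3 and Hes1 fell in knockout retinas, Dll3 to 0.73 and Hes1 to 0.88 of the heterozygote level. Of the 10 genes, 2 fell and 0 rose, against a background of 5.34% of all 14821 genes lower and 4.70% higher. At an unadjusted p under 0.05, 5 of the 10 were lower and 0 higher, where 10.7% of all genes were lower and 10.5% higher. That table gives no SE and no abundance, so no interval can be set.

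Dll3 had a log2 fold change of -0.46 in the authors' deposited table (DESeq2 adjusted p = 9.97e-05). The other ligands were close to 0, with -0.07 for Dll1, -0.14 for Dll4 and 0.04 for Jag1 in the authors' deposited table (DESeq2 adjusted p = 0.658, 0.474 and 0.922). Hes1 fell by 0.19 in the authors' deposited table (DESeq2 adjusted p = 0.0321), a call that ended when p-values were adjusted over every gene with a p (adjusted p = 0.0523). Hes5 had -0.02 and Hey1 0.02 in the authors' deposited table (DESeq2 adjusted p = 0.933 and 0.944). The receptors did not pass, with -0.25 for Notch1, -0.19 for Notch2 and -0.21 for Notch3 in the authors' deposited table (DESeq2 adjusted p = 0.0971, 0.236 and 0.187).

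Of 52 other pathway genes tested at E17.5, 8 fell and 0 rose (median -0.05). Over all genes tested, 5.34% fell and 4.70% rose. Among other Hes and Hey family genes and targets, Hes2 (-0.60), Heyl (-0.59) and Hes6 (-0.17) fell in the authors' deposited table (DESeq2 adjusted p between 6.22e-07 and 0.0452). The non-canonical ligand genes Dlk1 (-0.51) and Dner (-0.41) fell in the authors' deposited table (DESeq2 adjusted p = 0.0367 and 0.0234). Aph1b (-0.44), a γ-secretase subunit, Tle3 (-0.34), a corepressor, and Ep300 (-0.28), a histone acetyltransferase that works with the Notch complex, also fell in the authors' deposited table (DESeq2 adjusted p between 0.00465 and 0.0197). In the lists for glycosylation, ligand ubiquitination and receptor turnover 0 genes passed.

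Among markers at E17.5, neurogenic progenitors had 3 of 9 lower and 1 higher, with Olig2 at -0.48 and Otx2 at -0.35 in the authors' deposited table (DESeq2 adjusted p = 0.00275 and 0.00335). Over all genes tested, 5.34% were lower and 4.70% higher. Endothelial cells had 2 of 11 lower, Cldn5 (-0.68) and Kdr (-0.31), in the authors' deposited table (DESeq2 adjusted p = 4.84e-05 and 0.000220). Retinal progenitors, Müller glia and ganglion cells each had 1 marker higher and 1 lower. In that order, the higher ones were Sfrp2 (0.96), Vim (0.25) and Pou4f2 (0.35). The lower ones were Mki67 (-0.31), Kcnj10 (-1.08) and Pou4f3 (-0.59). Their DESeq2 adjusted p ran from 9.28e-39 to 0.0360 in the authors' results. Sfrp2 and Pou4f2 also rose with added Pou3f1 at 14 days. Pericytes and astrocytes had 1 marker lower each, and rods and microglia none past the threshold. The part of these cells in the Dll3 and Hes1 values was not tested.

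Dll3 was the 1 gene of the 10 that passed in opposite directions when Pou3f1 was added and when it was deleted. It was 2.62-fold higher in Pou3f1 over Gfp cells at 14 days and at 0.73 in knockout over heterozygous retinas, from the authors' deposited tables. The other pathway genes with that pattern were Dner, Hes6 and Tle3. Over all 14555 genes tested in both comparisons, 163 were higher with added Pou3f1 and lower in knockouts, which is 8.67% of the 1881 genes higher at 14 days and 20.9% of the 781 genes lower in knockouts. The reverse held for 40 genes, while 92 were higher in both and 90 lower in both. Dner alone of the pathway genes passed in all 3 comparisons, higher at 48 h and 14 days and lower in knockouts. Heyl, by contrast, fell both at 48 h in Pou3f1 cells and in knockout retinas, as did 68 genes of 14077 tested in both, 30.6% of those lower at 48 h and 8.85% of those lower in knockouts. Of the same 14077 genes, 19 were higher in both, 17 were higher at 48 h and lower in knockouts, and 4 were the reverse. The comparisons share no library, and they differ in strain, age and cells sampled.

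**Figure D5:**
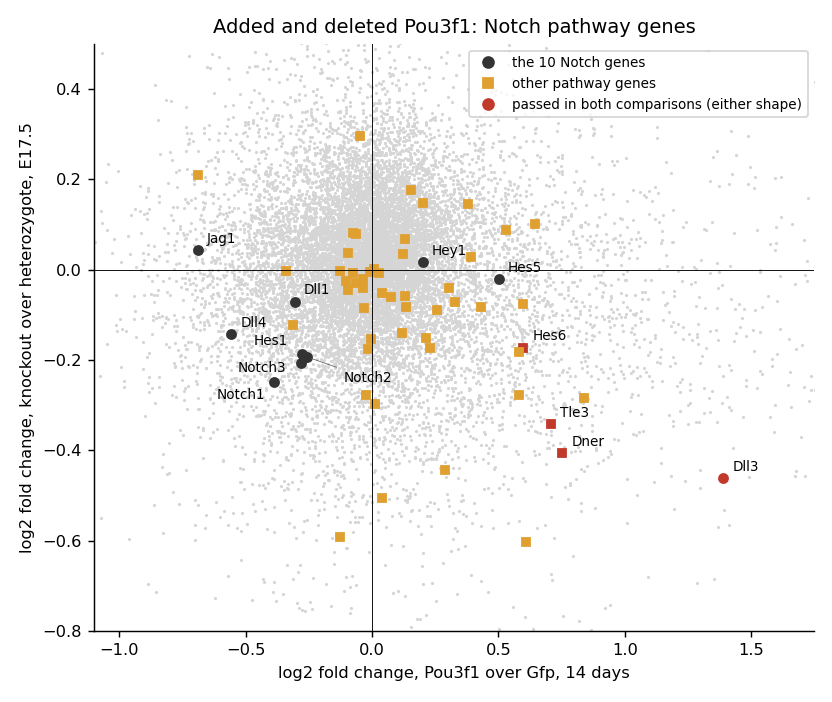
Log2 fold change in Pou3f1 over Gfp cells at 14 days (x axis) against that in knockout over heterozygous retinas at E17.5 (y axis) for the 10 Notch genes and the other pathway genes, over all genes in grey, some of which lie beyond the axes; red marks pathway genes that passed in both. Dll3 is farthest to the lower right at 1.39 and -0.46, with Dner, Tle3 and Hes6 also right of and below 0.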

How the data were processed

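RNA-seq libraries of 6 groups were analysed through 3 tables of the authors' own comparisons, made with Salmon, DESeq2 and mm10 per the submitters' processing notes; the sources used here give no versions, roles or fit formula. Per the file headers, the overexpression tables hold a mean normalized count (a signal), a log2 fold change, its SE, a Wald score, a p-value and an adjusted p. The E17.5 table deposited by the authors lacks the mean, the SE and the score. Its name puts heterozygotes first and gives another embryonic day than the labels; direction was read from Pou3f1.

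Responses at 14 days and 48 h were set against each other by a two-sided z test with the SE of both and Benjamini-Hochberg adjustment. The test is approximate because the overexpression fold changes appear shrunken. Its script was tested on simulated data. Intervals are 1.96 SE on each side (95%). Counts per kilobase used GENCODE release 21 exons. All 10 genes are named; of pathway lists, up to 4 called genes each, and of 9 marker lists, up to 2. A few genes under this rule are not reported here. Members and lists were chosen with earlier results of these data known. Alternatives tried were a mean count of at least 10, adjustment over every gene with a p, a 1.5-fold limit and a threshold of 0.01. Scripts ran in Python 3.11.15 (matplotlib 3.10.9, scipy 1.17.1, numpy 2.4.6, pandas 2.3.3).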

Additional observations from a re-analysis of the deposited data

Results flagged for a closer look

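The response to added Pou3f1 differed between 14 days and 48 h for 3 of the 9 Notch genes tested at both ages, by a z test of the difference itself. The 14 day minus 48 h difference was 1.08 on the log2 scale for Hes5, with fold changes of 0.50 at 14 days and -0.58 at 48 h. It was 1.07 for Dll3, with fold changes of 1.39 at 14 days and 0.31 at 48 h, and Dll3 had a mean count of 47.0 at 14 days. For Hey1 it was 0.82, with 0.20 at 14 days and -0.62 at 48 h. The fold changes are from the authors' deposited tables. Microglia, progenitor, Müller glia and rod markers also changed at 14 days, and their part in these differences was not tested. The increase of Pou3f1 itself was 0.91 at 48 h and 5.57 at 14 days, and its part was not tested.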

How the results depend on the processing

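The alternatives leave each fold change as it is, so no direction could change. Of 133 values of single genes under an alternative, 120 kept their side of the threshold and 13 lost it. At an adjusted p under 0.01, the calls among the 10 genes were 0 at 48 h (2 at 0.05), 1 at 14 days (3 at 0.05, Dll3 left), 1 at E17.5 (2 at 0.05, Dll3 left) and 1 for the late minus early difference (3 at 0.05, Hes5 left). With a 1.5-fold limit they were 1 at 48 h (Hey1), 2 at 14 days (Hes5 lost) and 0 at E17.5. Adjusted over every gene with a p, they were 1 at 48 h (Notch1) and 1 at E17.5 (Dll3). Other pathway calls were 4 at 48 h, and 2 at 0.01 and 2 over every gene. They were 15 at 14 days and 6 with the 1.5-fold limit. At E17.5 they were 8, and 4 at 0.01 and 2 with the 1.5-fold limit. The threshold of 0.01 and the 1.5-fold limit are stricter by construction, and no alternative added a call among the 10 genes. A mean count of at least 10 left these calls as they were at 48 h, at 14 days and for the late minus early difference. No paired analysis was possible because the tables hold no values per library; for the same reason no library could be left out and no other tool or normalization run. Depth per library is unknown, and the low mean count of Dll3 at 14 days limits its precision.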
